A study of Mus musculus with 12 samples.

Results

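Apcs, Crp and Cp, the genes of the short pentraxins and of the plasma copper protein ceruloplasmin, were examined in mouse liver. The 3 genes were taken by symbol from the 55487 rows of the deposited table, each has 1 row, and all 3 were among the 11344 genes tested. The samples were 6 control livers (numbered 3 to 8) and 6 livers from severe acute pancreatitis (SAP, numbered 10 to 15), all from wild-type Balb/c mice aged 6 weeks. The SAP animals were given caerulein, an analogue of cholecystokinin that overstimulates the pancreas. The sources used here do not give the dose, the time or what the controls received, and the design text speaks of a pair of mouse models that the sample labels do not tell apart. Whether each library is a separate animal is not stated in the labels, so p-values cover only library-to-library spread, which may be technical. Throughout, SAP means only the pancreatitis group, and the protein serum amyloid P component is called by its gene, Apcs.

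The short pentraxins Crp and Apcs are ring-shaped plasma proteins made by hepatocytes. They bind phospholipid head groups, bacterial surfaces and nuclear debris in the presence of calcium, and engage complement C1q and Fc receptors. C-reactive protein (Crp) is the main acute-phase pentraxin of humans, while in mice that role belongs to Apcs. Ceruloplasmin (Cp) is a multicopper ferroxidase that carries most of the copper in plasma and oxidises iron as cells export it, and it is a moderate acute-phase protein.

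Levels were taken to be TPM, transcript abundances scaled by gene length and library total. No header or label names the unit, and comparisons of level between genes rest on that reading. Libraries fell apart by Xist, a nuclear RNA, which was at 4.59 to 17.1 TPM in control 5, SAP 11, SAP 13, SAP 14 and SAP 15 and at 49.1 to 60.7 TPM in the other 7, so results are also given by that split. In the SAP livers Apcs and Cp rose, while the difference in Crp was not past the threshold. Apcs averaged 864 ± 191 TPM in controls and 2997 ± 225 TPM in SAP (SD, n = 6 each), 3.54-fold higher. Cp averaged 607 ± 50.5 TPM in controls and 1821 ± 223 TPM in SAP (SD, n = 6 each), 2.99-fold higher. Crp averaged 378 ± 25.7 TPM in controls and 418 ± 34.6 TPM in SAP (SD, n = 6 each), a fold of 1.10. Folds come from log2(TPM + 1), and the threshold was a Benjamini-Hochberg adjusted p of 0.05 in limma over all 11344 genes. Higher in SAP by that rule were 2 of the 3 genes, against 19.5% of all genes tested. In either direction 44.5% of all genes passed, and 25.0% were lower in SAP.

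The promoters are shown here because 2 of these genes rose while Crp, a near neighbour and relative of Apcs, was not past the threshold. Each window runs from 250 bases before to 50 after a RefSeq start on GRCm38.p6, read 5′ to 3′ on the gene's strand. Capitals mark matches to motif letters searched on both strands: TTCNNNGAA for STAT3, TTGCNNAA and TTGCNNNAA for C/EBP, and the NF-kB motif. Apcs lies on the minus strand at chr1:172895005-172895304, Crp on the plus strand at chr1:172697806-172698105, and Cp on the plus strand with windows at chr3:19956804-19957103 and chr3:19956999-19957298, which overlap.
Apcs: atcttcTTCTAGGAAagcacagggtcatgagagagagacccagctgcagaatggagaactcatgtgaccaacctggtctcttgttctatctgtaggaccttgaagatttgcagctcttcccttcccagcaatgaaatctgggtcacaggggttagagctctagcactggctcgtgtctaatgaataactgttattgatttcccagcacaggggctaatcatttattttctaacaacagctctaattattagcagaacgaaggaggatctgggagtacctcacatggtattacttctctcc
Crp: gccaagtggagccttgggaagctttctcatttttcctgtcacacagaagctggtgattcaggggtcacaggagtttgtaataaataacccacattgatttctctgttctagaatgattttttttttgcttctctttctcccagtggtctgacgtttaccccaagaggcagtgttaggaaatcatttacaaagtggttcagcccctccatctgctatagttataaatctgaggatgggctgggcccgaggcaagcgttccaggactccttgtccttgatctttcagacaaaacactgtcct
Cp, window 1: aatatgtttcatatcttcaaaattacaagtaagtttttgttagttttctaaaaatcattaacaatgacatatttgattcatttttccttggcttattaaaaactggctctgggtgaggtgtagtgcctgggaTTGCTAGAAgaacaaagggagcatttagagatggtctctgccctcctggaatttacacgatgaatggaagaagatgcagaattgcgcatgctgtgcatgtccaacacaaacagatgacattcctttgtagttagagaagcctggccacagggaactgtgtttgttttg
Cp, window 2: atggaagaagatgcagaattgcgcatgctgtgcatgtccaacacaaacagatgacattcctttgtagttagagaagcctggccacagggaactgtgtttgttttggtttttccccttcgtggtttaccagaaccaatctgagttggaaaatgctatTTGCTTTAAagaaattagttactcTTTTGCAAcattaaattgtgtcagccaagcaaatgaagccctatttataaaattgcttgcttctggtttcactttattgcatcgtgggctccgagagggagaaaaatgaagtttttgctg

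The Apcs window held 1 STAT3 match, at positions -244 to -236 from the start. Of 32851 RefSeq promoter windows of this length, 8.30% held the STAT3 letters. No searched motif was found in the Crp window. The first Cp window held 1 match to the C/EBP letters with 3 free bases, at -118 to -110. The second held 1 such match, at -94 to -86, and 1 with 2 free bases, at -70 to -63. Those letters were in 9.56% and 10.8% of all windows. The NF-kB motif (1.63% of windows) was in none of the 4 windows. A match is a description of letters and not a bound site.

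In GENCODE M21 on GRCm38, Apcs spans 172893961 to 172895041 on chromosome 1 and has 1 transcript of 2 exons. The coding transcript of Crp, also of 2 exons, spans 172698055 to 172699962 on chromosome 1 and ends 194 kb before Apcs. A longer noncoding Crp transcript reaches 172833031, 60.9 kb from Apcs, with 0 protein-coding genes in between. Cp spans 19957054 to 20009145 on chromosome 3 and has 16 transcripts, 8 of them coding, with up to 20 exons. Cp is known to have a secreted form and a membrane-anchored form from alternative splicing, and the deposited gene-level values do not separate them. The minus-strand gene Hps3 overlaps the 3′ end of Cp, at 2.04 ± 0.222 TPM in controls and 1.79 ± 0.609 TPM in SAP (SD, n = 6 each). The sources used here do not say whether strand was used in counting, so reads of Hps3 and Cp in the overlap may not be told apart.

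Apcs, the calcium-dependent pentraxin that coats amyloid fibrils and chromatin, was read at 1049, 718, 1087, 588, 840.5 and 899 TPM in controls 3 to 8. In SAP 10 to 15 it was at 3177, 3091, 2759, 2882, 3299.5 and 2774 TPM. The groups did not overlap, and the lowest SAP library (SAP 12) stood 2.54-fold above the highest control (control 5). The log2 change was 1.82 ± 0.13 (SE; limma adjusted p = 3.17e-07), higher in 6 of 6 SAP libraries, with a 95% interval of 2.90- to 4.31-fold. Only 80 of the 11344 genes had a larger increase. By level, Apcs moved from a median rank of 143.5 in controls to 46.5 in SAP among all rows of the table.

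Cp was at 582, 674, 578, 613, 655 and 540.1 TPM in controls 3 to 8. In SAP 10 to 15 it was at 1845, 1931, 1572, 1676, 2195 and 1708 TPM. Again no SAP library fell within the control range, and the lowest of them, SAP 12, was 2.33-fold above the highest control, control 4. The log2 change was 1.58 ± 0.09 (SE; limma adjusted p = 2.34e-08), higher in 6 of 6 SAP libraries, with a 95% interval of 2.63- to 3.40-fold. A larger increase was found for 120 genes. The median rank of Cp by level went from 224.5 to 64.5. Groups without overlap and higher in SAP were found for 2 of the 3 genes, against 10.5% of all genes tested, and 25.6% of all genes did not overlap in either direction.

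Crp, the pentraxin that binds phosphocholine on damaged membranes and bacteria, was at 410.1, 403, 341, 362, 379 and 375 TPM in controls 3 to 8. In SAP 10 to 15 it was at 455, 448, 382, 437, 409.6 and 374 TPM. The groups overlapped: 3 of 6 SAP libraries lay above the highest control, and SAP 15 lay below the control median. The log2 difference was 0.14 ± 0.07 (SE; limma adjusted p = 0.113), with a 95% interval from 0.995- to 1.22-fold. An exact two-sided permutation test of the same difference gave p = 0.0519. A larger increase was found for 3601 genes (31.7%). The median rank of Crp by level was 367 in controls and 265.5 in SAP.

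**Figure D1:**
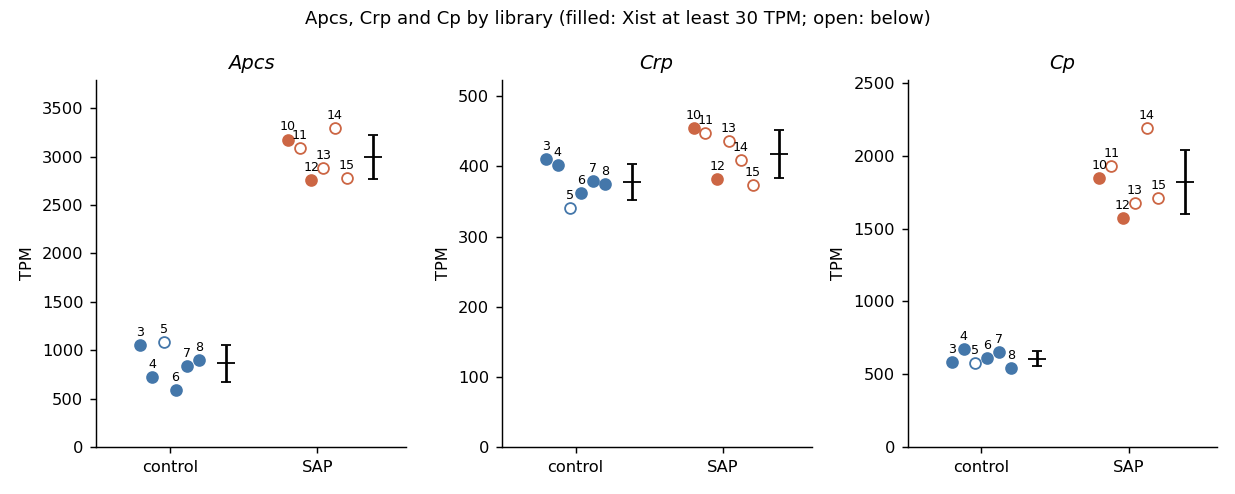
TPM of Apcs, Crp and Cp (y axes, from 0) in each of 6 control and 6 SAP libraries, numbered as in the labels; the bar beside each group is the mean ± SD, and open points are libraries with Xist under 30 TPM. The SAP libraries of Apcs (2759 to 3299.5 TPM) and Cp (1572 to 2195 TPM) sit above all controls, while those of Crp overlap the controls.

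TPM values are shares of a total, and the other plasma acute-phase genes on a list of 23 took 10.8 to 11.7% of all TPM in controls and 23.4 to 35.2% in SAP. That list includes Alb, the albumin gene, which falls in the acute phase. When these 23 genes were left out and the rest rescaled to a common total, Crp was at 387 to 467 TPM in controls and 499.5 to 642 TPM in SAP, with no overlap. Its log2 change was then 0.44 ± 0.08 (SE; limma adjusted p = 4.28e-04), but the median of all genes also moved, from -0.03 to 0.23. Of the genes past the threshold, 77.1% were then higher in SAP, against 43.8% as deposited. With quantile normalization, where the median of all genes was 0.02, Crp changed by 0.45 ± 0.07 (SE; limma adjusted p = 3.05e-04). With factors like those of TMM it differed by 0.20 ± 0.08 (SE; limma adjusted p = 0.0680). The size and the call for Crp therefore depended on the scaling, while Apcs ranged from 1.82 to 2.12 and Cp from 1.58 to 1.88 under the same 4 scalings.

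**Figure D2:**
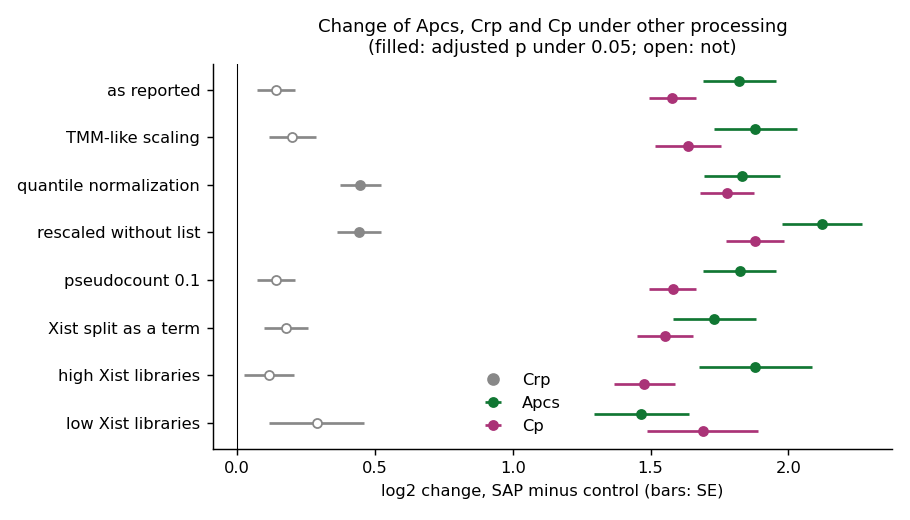
Log2 change (x axis, SAP minus control, bars are SE) of Apcs, Crp and Cp under 8 ways of processing (rows); filled points have an adjusted p under 0.05. Crp is filled only with quantile normalization (0.45) and after rescaling without the other plasma acute-phase genes (0.44), while Apcs and Cp are filled in every row.

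A factor applied to a whole library cancels in ratios between the genes within it, whereas quantile normalization can move them. The ratio of Apcs to Crp ran from 1.63 to 3.19 in controls (2.30 ± 0.566, SD, n = 6) and from 6.60 to 8.06 in SAP (7.19 ± 0.507, SD, n = 6). The log2 ratio was higher in SAP by 1.68 (exact two-sided permutation test, p = 0.00216, the smallest it can give; adjusted over the 3 ratios, p = 0.00325). The ratio of Cp to Crp averaged 1.61 ± 0.140 over controls and 4.37 ± 0.542 over SAP livers (SD, n = 6 each). Its log2 value was higher by 1.44 (exact two-sided permutation test, p = 0.00216, adjusted p = 0.00325), with 6 of 6 SAP libraries above all controls. The rises of Apcs and of Cp relative to Crp were thus larger than the spread between libraries. After quantile normalization, an alternative added after the data were seen, they were 1.38 and 1.33 (exact two-sided permutation test, p = 0.00216 each).

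The ratio of Cp to Apcs averaged 0.741 ± 0.214 over controls and 0.606 ± 0.0360 over SAP livers (SD, n = 6 each). The log2 values differed by -0.24 (exact two-sided permutation test, p = 0.199, adjusted p = 0.199), so a difference in response between Apcs and Cp was not detectable over the spread of the controls. After quantile normalization the difference was -0.05 (exact two-sided permutation test, p = 0.758). In controls this ratio ran from 0.532 (control 5) to 1.04 (control 6), and in SAP from 0.570 to 0.665. Control 6 was the only library with more Cp than Apcs.

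**Figure D3:**
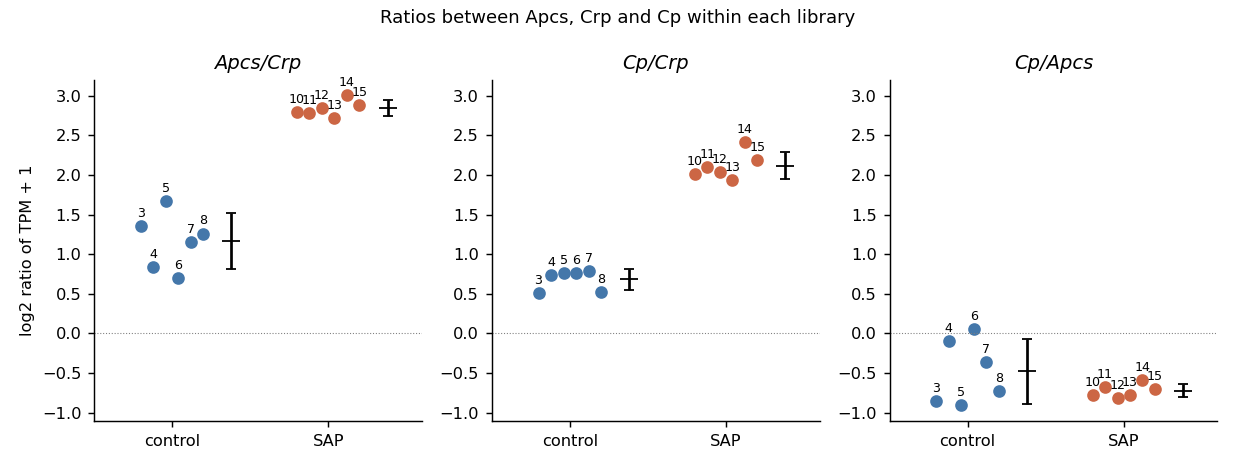
Log2 of the ratio of TPM + 1 for each pair of genes (y axis) in the numbered libraries of each group, with the mean ± SD beside them. Apcs/Crp and Cp/Crp separate the groups, with means of 1.16 against 2.84 and 0.68 against 2.12, while for Cp/Apcs the SAP libraries lie inside the range of the controls.

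The genes also differed in how much they varied between libraries of a group. For Apcs the SD was 22.2% of the mean in controls and 7.49% in SAP. For Crp it was 6.80% and 8.29%, and for Cp 8.32% and 12.2%. The wide spread of Apcs in controls came from libraries at both ends, with controls 4 and 6 low and controls 3 and 5 high. Whether these spreads differ between groups was not tested.

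Within a group, the 3 pairs of genes gave 6 correlations of log2(TPM + 1), each over 6 libraries. Apcs and Cp gave Pearson r = 0.92 in SAP (exact permutation p = 0.0194, adjusted over the 6 p = 0.117) and Spearman rho = 0.89 (exact permutation p = 0.0333, adjusted p = 0.200). Without the 2 libraries farthest from the Apcs median r was 0.83 over 4 libraries. In controls the same pair gave r = -0.52 (exact permutation p = 0.297, adjusted p = 0.594) and rho = -0.66 (exact permutation p = 0.175, adjusted p = 0.483). No correlation passed the adjustment, and whether the groups differ was not tested. SAP 14 was highest for Apcs and Cp, and also had the largest share of TPM in the other acute-phase genes (35.2%). The remaining 4 correlations had Pearson r from -0.05 to 0.62.

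Neither the high Xist libraries alone nor the Xist split as a term changed a call of the 3 genes. Control 5, the only control with low Xist, was the highest control for Apcs and the lowest for Crp. Among the 7 libraries with high Xist (5 control, 2 SAP) the log2 changes were 1.88 for Apcs (limma adjusted p = 5.63e-04), 1.48 for Cp (adjusted p = 1.29e-04) and 0.11 for Crp (adjusted p = 0.364). Among the others, with control 5 as the only control and assumed to vary like the rest, they were 1.47, 1.69 and 0.29. With the Xist split as a term they were 1.73, 1.55 and 0.18, and Crp was not past the threshold (limma adjusted p = 0.0980).

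Markers of the cell types in liver were read in the same libraries. Over all genes 19.5% were higher and 25.0% lower, and the marker counts are to be read against these shares. Of 8 hepatocyte markers 1 rose and 5 fell, and their summed level was 81811 to 94356 TPM in controls and 37626 to 52007 TPM in SAP. Most of that sum was Alb (65029 against 27673 TPM on average). Alb, Ttr and Serpina1a, which all fell, are also on the list of other plasma acute-phase genes. Apoa1 rose by 0.24, and Apob and Hnf4a were not past the threshold. The sum of 7 Kupffer cell markers overlapped (155 to 243 against 138 to 320 TPM), and 8 neutrophil markers summed to 4.32 to 17.3 against 36.5 to 111 TPM. Of the Kupffer markers 1 rose and 3 fell. The riser, Marco, was at most at 1.52 TPM in controls and at 34.1 to 76.6 TPM in SAP. Clec4f, Timd4 and Vsig4 fell, so the overlapping sum combined a large rise with these falls. Of the 4 neutrophil markers tested 3 rose, and Csf3r was not past the threshold. Most of the neutrophil sum in SAP was S100a8 and S100a9 (25.8 and 46.8 TPM on average). The untested neutrophil markers reached at most 0.89 TPM. The 4 erythroid markers, of which 3 were tested and all 3 fell, summed to 337 to 2814 TPM in controls and 196 to 402 TPM in SAP. The 8 pancreatic acinar markers summed to 0.60 to 12.0 TPM in controls and 0.56 to 1.16 TPM in SAP. Of 3 tested monocyte and macrophage markers 2 rose and 1 fell. Sinusoidal endothelial markers (6 tested) gave 2 that rose and 0 that fell, and stellate cell markers (6 tested) gave 3 and 1. Neither of 2 tested cholangiocyte markers was past the threshold, and 0 of 6 lymphocyte markers were tested. No marker of any list was at 0 in all libraries. In bulk tissue fewer cells of a type, less RNA per cell and regulation of a marker gene itself cannot be told apart. The part of these markers in the changes of Apcs and Cp was not tested.

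The other pentraxin genes were almost silent in these livers. None of the 8 listed, among them the long pentraxin Ptx3 (at most 0.2 TPM), the neuronal pentraxins Nptx1, Nptx2 and Nptxr and the mucosal pentraxins Mptx1 and Mptx2 (listed at 0), reached the level for testing. Together they summed to 0.23 to 0.77 TPM in controls and 0.12 to 0.64 TPM in SAP. Among the pentraxin genes read here, all but a trace of the transcripts were thus Apcs and Crp.

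Partners that pentraxins bind moved in both directions. Of 16 complement, lectin and Fc receptor genes 15 were tested, of which 8 rose and 2 fell, with a median log2 change of 0.30 against -0.03 over all genes tested. Over all genes 19.5% were higher and 25.0% lower. After rescaling without the other plasma acute-phase genes 9 of these 15 were higher and 2 lower, against 44.1% and 13.1% of all genes. Their median was then 0.60 against 0.23 over all genes. C3, the central complement component, rose from 3330 ± 314 to 7043 ± 686 TPM (SD, n = 6 each), or 1.08 on the log2 scale (SE 0.09, limma adjusted p = 6.07e-07), and C4bp, a regulator that binds pentraxins, by 0.58. The receptor gene Fcgr1 went from 0.925 to 2.94 TPM on average, a log2 change of 1.01, and in controls it was close to the 1 TPM filter. Of its relatives on the list, Fcgr2b rose by 0.33, and Fcgr3 (-0.14) and Fcgr4 (0.17) were not past the threshold. Mbl2, a mannose-binding lectin, fell by 1.75, from 513 ± 59.3 to 154 ± 32.4 TPM (SD, n = 6 each). Mbl1, the other mannose-binding lectin on the list, rose by 0.59 (SE 0.08, limma adjusted p = 3.38e-05). The 3 chains of C1q, to which ligand-bound pentraxins dock, summed to 123 to 172 TPM in controls and 108 to 229 TPM in SAP, and a difference was not detectable (exact two-sided permutation test, p = 0.957).

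Cp stood nearly alone among the multicopper ferroxidase genes read here. Its membrane-bound relative Heph was at no more than 0.57 TPM in any library and Hephl1 was listed at 0. Of 13 listed genes of ferroxidases, iron handling and multicopper relatives 10 were tested, of which 2 rose and 2 fell, with a median log2 change of 0.01 against -0.03 over all genes. These counts are near the 19.5% higher and 25.0% lower of all genes tested. Steap4, a metalloreductase that reduces iron and copper, rose from 47.0 ± 5.94 to 433 ± 258 TPM (SD, n = 6 each), or 2.93 on the log2 scale (SE 0.35, limma adjusted p = 2.06e-05). Steap3, which reduces iron in endosomes, fell by 1.05. Steap2, of the same family, was higher by 0.41 and passed in only 4 of the 12 fits that left out a library; controls 4, 5, 6 and 8 and SAP 10, 11, 12 and 15 were each needed for the call (0.33 to 0.43, limma adjusted p = 0.0547 to 0.0893 without one of them), as was the filter (limma adjusted p = 0.0981 with none). F5, coagulation factor V, whose A domains are related to Cp, fell by 0.54. That call was lost with the Xist split as a term (-0.43, limma adjusted p = 0.0559), after rescaling without the other plasma acute-phase genes (-0.24, limma adjusted p = 0.107) and among the high Xist libraries (-0.32, limma adjusted p = 0.0501). Under that rescaling 4 of 9 tested genes of this list were higher and 1 lower, near the 44.1% and 13.1% of all genes in that setting. Slc40a1, the iron exporter that Cp works with, was at 31.2 ± 3.90 TPM in controls and 30.8 ± 8.87 TPM in SAP (SD, n = 6 each; limma adjusted p = 0.793).

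Slc31a1, a gene of copper import, and Atp7b, a gene of copper loading onto Cp, were not past the threshold. Of 19 copper transport and copper enzyme genes 17 were tested, of which 4 rose and 6 fell, against 19.5% and 25.0% of all genes, with a median log2 change of -0.12 against -0.03 over all genes. After rescaling without the other plasma acute-phase genes 9 were higher and 4 lower, against 44.1% and 13.1% of all genes, with a median of 0.18 against 0.23. Atp7b, the pump that loads copper onto Cp in the secretory pathway, was at 6.00 ± 0.456 TPM in controls and 5.17 ± 1.27 TPM in SAP (SD, n = 6 each; limma adjusted p = 0.224). Slc31a1, the copper importer, was at 76.8 ± 2.04 and 71.8 ± 7.77 TPM (SD, n = 6 each; limma adjusted p = 0.274). Neither difference was past the threshold, and the sign of both turned after rescaling without the other plasma acute-phase genes. Atox1, another copper gene of this list, was higher by 0.15 (SE 0.06, limma adjusted p = 0.0418), close to the threshold. The list's count of higher genes was 5 with factors like those of TMM and 6 with quantile normalization. It was 3 with the limma trend off, among the high Xist libraries (of 16 tested) and with TMM-like factors plus the Xist split as a term. How Atox1 alone fared in these settings is not given here. The metallothionein genes Mt1 and Mt2, whose proteins bind copper and zinc, rose by 3.10 and 3.34. Sod1, the copper-zinc superoxide dismutase, fell from 2309 ± 66.5 to 1634 ± 119 TPM (SD, n = 6 each), or -0.50 on the log2 scale (SE 0.06, limma adjusted p = 2.23e-05), and Ccs, which delivers copper to it, fell by 0.93.

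Receptors and factors known to act on acute-phase genes changed unevenly. Of 18 listed genes 17 were tested, of which 7 rose and 3 fell, against 19.5% and 25.0% of all genes, with a median log2 change of 0.22 against -0.03 over all genes. After the same rescaling 11 were higher and 1 lower, against 44.1% and 13.1% of all genes. Socs3, the feedback inhibitor of cytokine receptors, rose from 2.01 ± 0.589 to 33.5 ± 13.5 TPM (SD, n = 6 each), or 3.43 on the log2 scale (SE 0.25, limma adjusted p = 3.40e-07). Stat3, the transcription factor downstream of interleukin-6, rose by 0.66 and the shared receptor chain Il6st by 0.61. Il6ra, the interleukin-6 receptor, fell by 0.54, a call that was lost with the Xist split as a term (-0.37, limma adjusted p = 0.147), after rescaling without the other plasma acute-phase genes (-0.25, limma adjusted p = 0.204), with no filter (limma adjusted p = 0.0624), among the high Xist libraries (-0.47, limma adjusted p = 0.0581) and without control 3, 4, 6 or 8 (-0.51 to -0.48, limma adjusted p = 0.0507 to 0.0556). Of the interleukin-1 receptor chains Il1r1 rose by 1.59 and Il1rap fell by 0.89.

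Among the transcription factors Foxa2 rose by 0.85 and the NF-kB subunit gene Rela by 0.22, which was not past the threshold among the high Xist libraries (0.21, limma adjusted p = 0.0750). Cebpb fell by 0.69 (limma adjusted p = 0.0277). It was not past the threshold with factors like those of TMM (-0.63, limma adjusted p = 0.0569), quantile normalization (-0.47, limma adjusted p = 0.139) or rescaling (-0.39, limma adjusted p = 0.182). Nor was it with no filter (limma adjusted p = 0.0718), with the Xist split as a term (-0.74, limma adjusted p = 0.0506) or without control 3, 4 or 6 or SAP 10, 11 or 12 (-0.65 to -0.55, limma adjusted p = 0.0528 to 0.0618). Hnf4a (0.18), Hif1a (0.14), Cebpd (0.23), Cebpa (-0.33) and Nfkb1 (-0.14) had log2 differences that were not past the threshold. Of these, Hnf4a, Hif1a and Cebpd were past it after rescaling without the other plasma acute-phase genes, Hnf4a also with quantile normalization, and Cebpa was past it without SAP 12 (-0.46, limma adjusted p = 0.00740).

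Against other plasma acute-phase genes, the rises of Apcs and Cp were among the smaller ones. Of the 23 listed, 18 rose and 3 fell, against 19.5% and 25.0% of all genes, with a median log2 change of 2.31 against -0.03 over all genes. That list was drawn up with earlier results of these data known and is not independent evidence of its direction. Of the 18 that rose, 14 had a larger change than Apcs and the same number a larger change than Cp. Saa3 rose by 9.90, the orosomucoid gene Orm1 by 3.64, Lrg1 by 2.59 and Itih4 by 2.25. In level, Apcs gained 2133 TPM and Cp 1214 TPM on average.

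**Figure D4:**
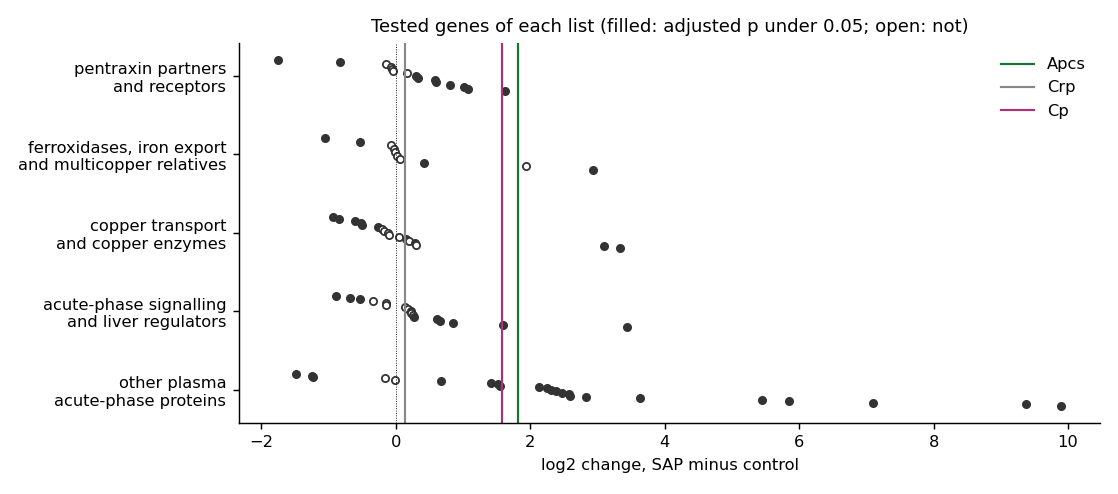
Log2 change (x axis, SAP minus control) of each tested gene in 5 lists (rows), filled where the adjusted p was under 0.05, with vertical lines at Apcs (1.82), Cp (1.58) and Crp (0.14). Most other plasma acute-phase genes that rose lie to the right of the Apcs and Cp lines, and most copper genes lie to the left of them.

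**Figure D5:**
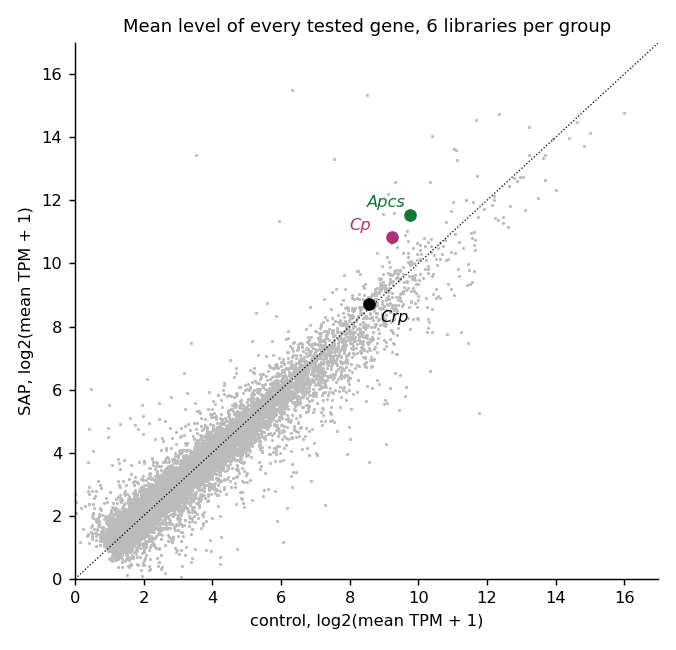
Mean level of every tested gene in controls (x axis) and in SAP (y axis), both as log2(mean TPM + 1), with the dotted line marking equal levels. Apcs and Cp lie above the line among highly expressed genes, and Crp lies close to it.

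The genes whose log2(TPM + 1) followed each gene most closely over the 12 libraries were named by Pearson r, as a description in which the group difference and the library scaling are shared. For Apcs they were Fgl1 (0.988), Gnat2 (0.987) and Gabarap (0.987). For Cp they were the fibrinogen genes Fgb (0.994) and Fga (0.993) and the hemopexin gene Hpx (0.992). For Crp the values were lower, with Cyyr1 (0.897), Pld1 (0.878) and AC142112.1 (0.870). Among the other genes of the 11344 tested, Cp ranked 171 in likeness to Apcs (0.954), and Crp ranked 2490 (0.583).

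After the group means were taken off, so that only differences between libraries of a group remained, library scaling among them, other genes were closest. Apcs deviated most like Rpl23 (0.893), Gm15500 (0.888) and Gm10275 (0.880). Crp deviated most like Pros1 (0.917), the gene of the anticoagulant protein S, then Cyyr1 (0.900) and Septin10 (0.887). Cp deviated most like Arfgap3 (0.863), Rpap3 (0.853) and again Fga (0.852). The deviations of Apcs and Cp themselves gave -0.05 over the 12 libraries.

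Genes near the pentraxin and ceruloplasmin loci were mostly silent. Within 300 kb of Apcs, GENCODE M21 lists 16 other genes, of which 3 were tested, Crp included, 1 was higher and 1 lower, and the rest reached at most 1.04 TPM in any library. Around Crp 4 of 23 were tested, some of them shared with Apcs, and 3 were higher, Apcs included, and 1 lower. Around Cp 4 of 15 were tested, of which 1 rose and 1 fell, against 19.5% and 25.0% of all genes, and the others reached at most 0.22 TPM. Tested neighbours other than Apcs and Crp averaged at most 17.3 TPM in either group, far below the levels of Apcs, Crp and Cp.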

How the data were processed

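RNA from frozen liver was extracted with Trizol and made into Illumina libraries, per the labels' protocols. The authors deposited 1 table with 12 sample columns, and 0 columns were left out. The values the authors deposited were taken to be TPM, which is scaled to gene length and library total, because the columns sum to 993412 to 995793. No file header or label names the unit. Such sums do not by themselves show scaling by gene length, so levels and ranks compared between genes depend on this reading. TPM keeps no depth, so no counting interval could be given. The submitters' processing notes name edgeR without a version or a role. The sources used here give no aligner, build, annotation or strand setting.

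The test was two-sided limma (version 3.58.1, R 4.3.3, trend on), on log2(TPM + 1), for genes that reached 1 TPM in 6 or more of the 12 libraries, adjusted by Benjamini-Hochberg over 11344 genes. Folds on this scale understate changes of low genes. Of rows sharing a symbol (120), the one with the highest median kept it. Ratios and single values used exact permutation tests (scipy 1.17.1). From each list the 4 tested genes with the smallest adjusted p were named, with every tested receptor and transcription factor of the signalling list and the 3 genes most like each of Apcs, Crp and Cp by 2 measures. Atp7b, Slc31a1, Slc40a1, Fcgr1, the C1q chains, Hps3, Heph, Hephl1 and the other pentraxins were named after their values were seen. So were Atox1, Mbl1, Fcgr2b, Fcgr3, Fcgr4 and the single cell type markers. The 3 genes and all lists were chosen with earlier results of these data known. On simulated data (11344 genes, SAP against control) 38 of 67 changes of 0.5 on the log2 scale, 66 of 67 of 1 and 64 of 66 of 2 were recovered, with 7 false calls among 175. Promoters come from RefSeq on GRCm38.p6, with windows for 3 of 3 genes, and positions from GENCODE M21. A planned comparison of protein sequences was not made, and some list members and planned motifs are not reported here. Alternatives are listed with their effect in the closing section. Figures used matplotlib 3.10.9.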

Additional observations from a re-analysis of the deposited data

How the results depend on the processing

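Apcs and Cp kept their direction and their call in all 25 alternatives run for each with more than 1 control library, and Crp kept its direction in all 25. Crp passed the threshold with quantile normalization (0.45) and after rescaling without the other plasma acute-phase genes (0.44), and in none of the other 23. Leaving out each library in turn gave log2 changes of 1.72 to 1.89 for Apcs, 1.52 to 1.62 for Cp and 0.11 to 0.17 for Crp, and 4549 to 5072 genes past the threshold against 5043 with all libraries. The same gave log2 differences in ratio of 1.59 to 1.78 for Apcs/Crp, 1.38 to 1.47 for Cp/Crp and -0.33 to -0.13 for Cp/Apcs.

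Among the 5 libraries with Xist under 30 TPM, an alternative added after the data were seen, 310 genes were past the threshold, the Apcs/Crp difference was 1.18, and the Cp/Apcs difference turned to 0.22. That subset has fewer samples, with control 5 as its only control. Differences that were not past the threshold changed sign as follows. Rescaling without the other plasma acute-phase genes gave 0.13 for Nfkb1, 0.042 for Atp7b, 0.19 for Slc31a1 and 0.22 for Slc40a1, and quantile normalization gave 0.14 for Slc31a1 and 0.072 for Slc40a1. With the Xist split as a term Slc40a1 was at 0.067, and with TMM-like factors added it was at 0.062. The high Xist libraries gave 0.023 for Atp7b and 0.28 for Slc40a1, and leaving out each library gave -0.16 to 0.12 for Slc40a1, the highest without SAP 14. The cause was not tested. No paired analysis was possible because the control and SAP samples share no replicate numbers. The unknown depth limits what can be said of genes at a few TPM, such as Atp7b.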
